A study of Canis lupus familiaris with 51 samples.

Results

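The p53, CDK inhibitor and RB pathway was followed through 9 genes across 51 canine cutaneous mast cell tumors (MCTs), each from a different dog and each measured on 1 one-color Agilent canine array: MDM2, CDKN1A, GADD45A, CDKN1B, CDKN2A, CDKN2B, CDKN2C, RB1 and CDKN3. The genes were chosen by name, and 15 of the 43603 probes measured them, 9 through the array's gene name and 6 through its description. The tumors arose spontaneously in the skin of client-owned dogs, no agent was given as part of the design, and the material was a piece from the middle of the mass, so that each array holds the RNA of every cell type in that piece. The labels give 30 female and 19 male dogs, with 2 unassigned, and ages of 3 to 14 years for 49 dogs. The most frequent breed labels are Crossbred (14 dogs), Boxer (9) and Labrador Retriever (9). No label gives a histological class. The study's histology table names 13 reference differentiated and 4 reference undifferentiated tumors by the case names of the labels, graded under the microscope; these are described below without a test, beside the 34 tumors that the table does not name by a label. The table's other undifferentiated case has a name that no label holds, so it may be any of the 34.

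As background, p53 is a stress-activated transcription factor. MDM2 is the ubiquitin ligase that marks it for destruction and is itself a p53 target. CDKN1A (p21) and GADD45A are p53 targets that halt the cell cycle. CDKN1B (p27) is a second broad CDK inhibitor, controlled mainly through protein turnover. The INK4 proteins of CDKN2A (p16), CDKN2B (p15) and CDKN2C (p18) block CDK4 and CDK6, which keeps RB1 active as a brake on E2F and on entry into S phase. CDKN3 is a phosphatase that acts on CDK2 and CDK1, and its transcript is made in dividing cells.

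All 7 measured genes of a list of 13 mast cell markers were well above background on all 51 arrays, KIT at 9.11 to 15.03 and CMA1 (mast cell chymase) at 14.65 to 17.87. Levels here and below are log2 of the normalized signal. A level of one probe cannot be set against that of another probe. Between 59.4 and 74.8% of probes were well above background on an array, and no pair of arrays held identical values. The arrays fill 15 slides and 9 scan sessions.

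The probes that carry the main patterns are shown here as 60-base sequences, 5′ to 3′, with positions as the array's file gives them; its genome build is not given in the sources used here. The first 2 are the probe named CDKN2A, on chromosome 11 from 44291409 to 44294165 on the minus strand, and the probe described as CDKN2B, from 44293863 to 44293922 on the same strand. The span of the first is longer than the probe, as for a probe across a splice junction, and the second lies between its ends. The longest run of bases the 2 have in common is 5, so neither can be read as a copy of the other. Which of the neighbouring genes each measures cannot be told apart from these positions, and both may read the same gene.
CDKN2A-named: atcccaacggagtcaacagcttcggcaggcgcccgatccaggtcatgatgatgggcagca
CDKN2B-described: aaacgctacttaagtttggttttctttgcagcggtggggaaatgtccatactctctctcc
The MDM2 probe lies on chromosome 10 from 13946414 to 13946473 on the plus strand, in the stretch that stood out in tumors T90 and T73.
MDM2: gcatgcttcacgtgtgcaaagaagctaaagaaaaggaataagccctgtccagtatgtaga
In all, 3 probes were assigned to CDKN3 on chromosome 8. A_11_P00000735 (33390451 to 33390510) and A_11_P092971 (33390461 to 33390520) lie on the plus strand and share the 50 bases in capitals, so they count as nearly the same measurement. A_11_P120266 (33377372 to 33377432) is placed on the opposite strand and was well above background on 4 of 51 arrays.
A_11_P00000735: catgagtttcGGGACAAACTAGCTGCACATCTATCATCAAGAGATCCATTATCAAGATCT
A_11_P092971: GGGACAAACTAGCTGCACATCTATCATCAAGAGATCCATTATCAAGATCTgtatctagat
A_11_P120266: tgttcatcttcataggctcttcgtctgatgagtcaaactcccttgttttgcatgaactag

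Of the 15 probes, 11 were well above background on all 51 arrays, and the CDKN2A-named probe was so on 40, the CDKN2B-described probe on 49 and the RB1 probe on 50. The members differed widely in how much they varied. The CDKN2A-named probe ran from 1.92 in T135 to 8.29 in T77 (SD 1.56), a spread wider than that of 95.8% of the 29922 probes above background on at least 26 arrays. The CDKN3 probe A_11_P00000735 had an SD of 1.31 (wider than 93.6% of them) and the CDKN2B-described probe one of 1.02 (88.3%). The brighter GADD45A probe came next with 0.88 (83.9%). The median SD of those probes was 0.47. CDKN1B was among the steadier genes, with an SD of 0.36 (30.5%) on A_11_P055296, and MDM2 (0.53) and RB1 (0.47) were near the middle. Probes of one gene gave nearly the same order of tumors for GADD45A (r = 0.99 over 51 tumors), CDKN1B (r = 0.93) and a pair of CDKN1A probes (r = 0.98). The third CDKN1A probe, A_11_P0000020666, followed the other two only loosely (r = 0.41 and 0.44) and had an SD of 0.28.

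**Figure D1:**
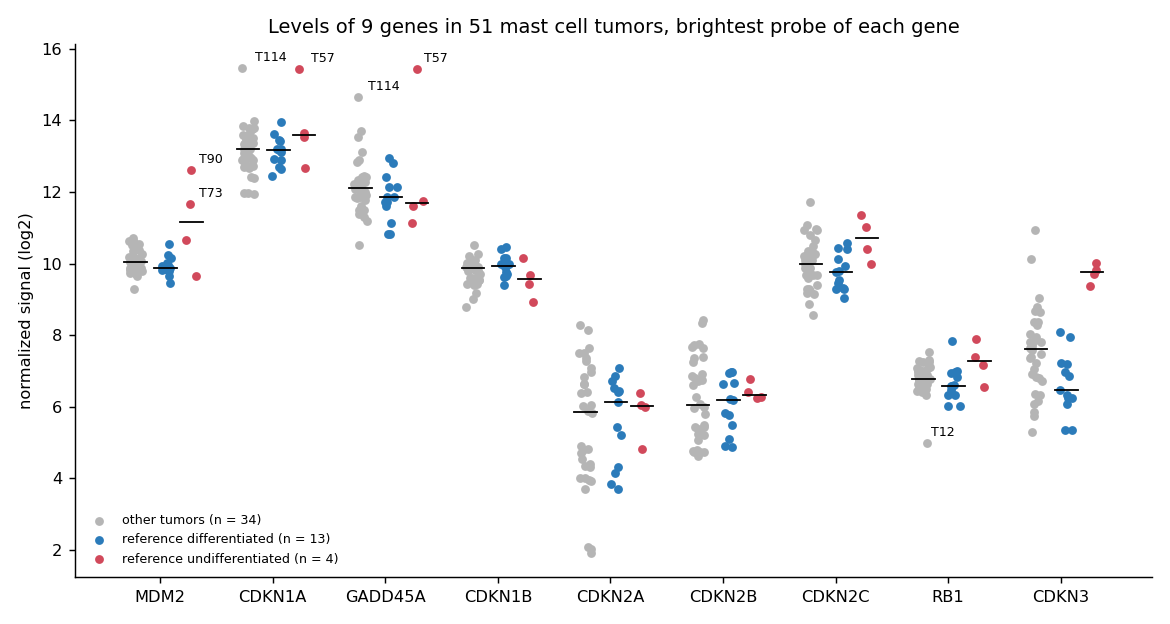
Log2 normalized signal of the brightest probe of each of the 9 genes; each point is 1 of 51 tumors, in gray for the 34 tumors outside the reference table, blue for 13 reference differentiated and red for 4 reference undifferentiated tumors, and black bars are medians. CDKN3 is the only gene whose red and blue points do not overlap, and single tumors stand apart for MDM2 (T90, T73), CDKN1A and GADD45A (T57, T114) and RB1 (T12).

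MDM2 was lowest in T61 (9.28), had a median of 10.02 and was highest in T90 (12.61), followed by T73 (11.67). In a tumor piece, fewer cells of a type and less RNA per cell cannot be told apart. Both tumors are reference undifferentiated, and the other two were at 10.67 (T9) and 9.65 (T57), against 9.47 to 10.56 in the 13 reference differentiated tumors. So 3 of 4 lay above every differentiated tumor, T57 lay within their range, and the class medians were 11.17 and 9.88. MDM2 in T90 was 2.59 log2 units, or 6.0-fold, above the median of the 51 tumors, and in T73 1.65 units, or 3.15-fold. CDKN1A and GADD45A, the other p53 targets among the members, were below their medians in T90. The brightest CDKN1A probe was at 12.67 (rank 43 of 51) and the brighter GADD45A probe at 11.13 (rank 48). In T73 they were at 13.53 (rank 14) and 11.75 (rank 35). Values of p53 targets outside the members are not given for these tumors. T90 and T73 ranked 2 and 7 for the mast cell marker level 8 and 3 for the granulocyte level and 40 and 45 for the fibroblast level. MDM2 fell with the fibroblast level over the 51 tumors (r = -0.51, rho = -0.53, adjusted permutation p = 0.00171 for each over 9 members and 18 tests, and r = -0.49 without the 2 farthest tumors). The fibroblast list was taken up after the data were seen, and its p is not adjusted for that choice among cell type lists. MDM2 also rose with the mast cell level (r = 0.35, rho = 0.36, adjusted permutation p = 0.0322 and 0.0246 over 36 relations). The part of these cells in the MDM2 values of T90 and T73 was not tested.

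The high MDM2 signal in T90 and T73 belonged to a run of high neighbours with gaps in it. The genes with the pattern most like MDM2 over the 51 tumors, among 15034 named probes above background on at least 26 arrays, were NUP107 (r = 0.83), CPSF6 (r = 0.78) and RAP1B (r = 0.76), and all of them lie on chromosome 10 near MDM2. Within the stretch from MDM1 to YEATS4, whose ends were chosen after the values were seen, T90 was highest or second highest of the 51 tumors on 13 of the 18 other probes, against 7.25% of all 29922 probes. T73 was so on 10 of 18, against 4.28%. In T90 and T73 respectively, MDM1 was 2.67 and 1.73 above its median, RAP1B 2.17 and 2.15, NUP107 2.04 and 1.77, SLC35E3 2.24 and 2.98, and YEATS4 2.38 and 1.33. Not all probes in the stretch were raised. In T90 and T73, BM538679 at 8 kb from MDM2 was at -0.54 and -1.08 from its median. TC72704 at 10 kb was at -0.09 and -0.05, and DN866514 at 20 kb at -0.09 and 0.14. The LYZ probes were 0.11 to 0.76 above their medians. Beyond YEATS4 the pair parted. RAB3IP, 749 kb from MDM2, was 2.32 above its median in T90 and -0.80 from it in T73, and the first CNOT2 probe, 1201 kb away, was at 1.39 and -0.23. Over 1500 kb to either side, T90 was highest or second on 31 of 46 probes and T73 on 10. The 2 tumors were on different slides and in different scan sessions. The arrays measured RNA, and DNA copy number was not measured.

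**Figure D2:**
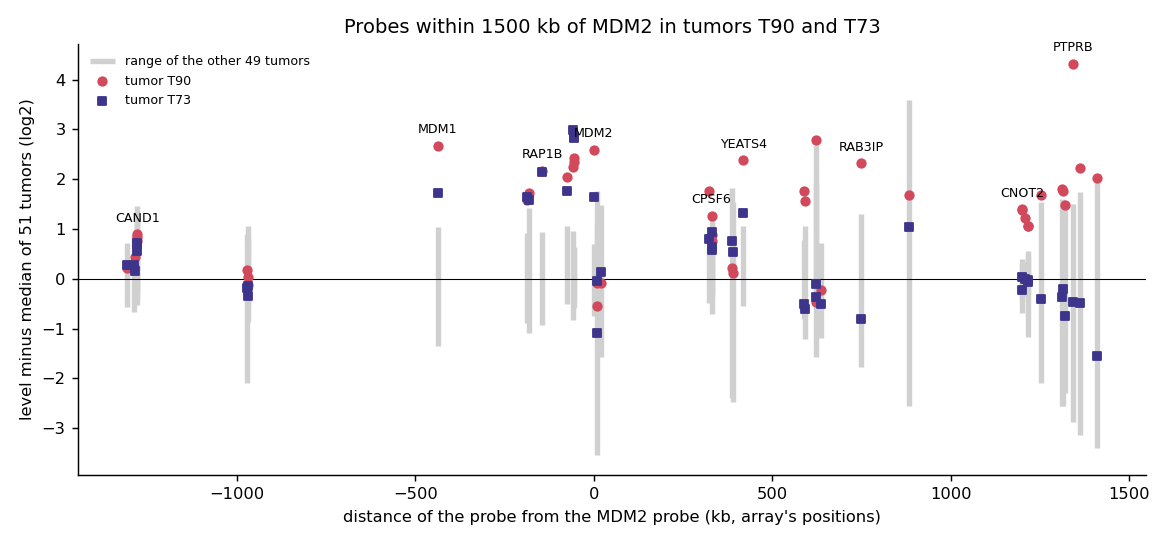
Level minus the median of 51 tumors (log2) for each probe well above background on at least 26 arrays within 1500 kb of the MDM2 probe, against distance in kb; red circles are T90, violet squares T73, and gray bars the range of the other 49 tumors. From MDM1 to YEATS4 many points of both tumors lie above the gray bars, while farther to the right many of T90 still do and those of T73 do not, as at RAB3IP (2.32 against -0.80).

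The p53 target GADD45A and a pair of the 3 probes of CDKN1A, another p53 target, were each highest in the same 2 tumors. The brightest CDKN1A probe, A_11_P122016, had a median of 13.20 and was at 15.46 in T114 and 15.44 in T57, 4.78-fold and 4.71-fold above it. The brighter GADD45A probe had a median of 12.03 and was at 15.43 in T57 and 14.65 in T114, 10.6-fold and 6.17-fold above it. The third CDKN1A probe, A_11_P0000020666, was highest in T51 (11.85), with T57 and T114 at rank 2 and 4 and 1.39-fold and 1.38-fold above its median of 11.24. T57 is a reference undifferentiated tumor and T114 is not in the reference table. The other undifferentiated tumors were at 11.13 to 11.75 for GADD45A, inside the differentiated range of 10.82 to 12.94, and so were not high. The 2 genes had r = 0.38 over 51 tumors, which did not pass after adjustment over 36 pairs, and r = -0.15 without T57 and T114. With slide means taken out the pair passed (r = 0.59, rho = 0.44, adjusted permutation p = 2.88e-04 and 0.00756), all 51 tumors included. These p may be too small, because the permutations took no account of the slide means removed. T57 and T114 also had the highest and second highest granulocyte marker levels (13.92 and 13.65, against 6.90 in the lowest tumor). They ranked 47 and 51 for the mast cell marker level. Over the 51 tumors GADD45A fell with the mast cell level (r = -0.53, rho = -0.43, adjusted permutation p = 7.2e-04 and 0.00617 over 36 relations). It rose with the granulocyte level (r = 0.45, rho = 0.36, adjusted permutation p = 0.00443 and 0.0246). Without the 2 farthest tumors these r were -0.44 and 0.20, and the second did not pass. CDKN1A had r = -0.33 and 0.36 and did not pass by rho. The part of these cells in the high values was not tested. The genes most like CDKN1A were ZFAND5 (r = 0.71), MAP2K3 (r = 0.67) and ARF6 (r = 0.66), and those most like GADD45A were NFIL3 (r = 0.80), PELI1 (r = 0.78) and TRIB1 (r = 0.76).

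The CDKN2A-named and CDKN2B-described probes varied together and were both highest in T77 (8.29 and 8.41) and lowest in T135 (1.92 and 4.62). Pearson's r between them was 0.88 and Spearman's rho 0.92 over 51 tumors (adjusted permutation p = 3.6e-04 for each, from p = 1e-05, the smallest that 100000 resamples can give, over 36 pairs and 72 tests), and r was 0.89 with slide means taken out. Neither separated the classes. The CDKN2A-named probe was at 5.98 in T9, 4.82 in T57, 6.37 in T73 and 6.04 in T90, inside the differentiated range of 3.70 to 7.09. The CDKN2B-described probe was at 6.23 to 6.77 against 4.86 to 6.98. On the 11 arrays where the CDKN2A-named probe was not well above background it read 1.92 to 4.33. Of these tumors 2 are reference differentiated and none is among the 4 undifferentiated ones named by a label. The arrays with the lowest shares of spots well above background were among them: T6 (59.4%), T12 (60.6%), T91 (60.7%) and LM0 (62.2%). The others of the 11 had 65.1 to 68.6%, where the highest array had 74.8%. The part of this share in the low values was not tested.

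Both probes followed the keratinocyte marker level, the mean of 7 of 10 listed skin epithelial genes, which falls into separate clusters of 25 tumors (2.29 to 7.82) and 26 tumors (10.49 to 13.61). In the 25 lower tumors the CDKN2A-named probe ran from 1.92 to 6.41 with a median of 4.33 and was above background in 15. In the 26 higher tumors it ran from 4.31 to 8.29 with a median of 6.69 and was above background in 25. The CDKN2B-described probe had medians of 5.37 and 6.88. Within the 26 higher tumors r with the keratinocyte level was 0.78 for CDKN2A (rho = 0.72, adjusted permutation p = 2.4e-04 and 9.0e-04) and 0.83 for CDKN2B (rho = 0.80, adjusted p = 2.4e-04 for each). These became 0.71 and 0.78 without the 2 farthest tumors. Within the 25 lower tumors r was 0.28 (adjusted permutation p = 0.354) and -0.01 (p = 0.977). The difference between the clusters was not tested. The 2 probes still correlated with each other inside both clusters, at r = 0.54 in the lower (rho = 0.58, permutation p = 0.00493) and 0.94 in the higher (rho = 0.90), and at 0.44 and 0.90 without the 2 farthest tumors. Of the keratinocyte markers, KRT5 ran from 1.63 to 17.75 and was above background on 41 arrays, KRT10 on 30 and TP63 on 4. Both probes also fell with the mast cell marker level (r = -0.45 and -0.48, adjusted permutation p = 0.0042 and 0.00237 over 36 relations). How much of either probe's signal comes from skin epithelium in the piece was not tested. The genes most like CDKN2A, apart from the CDKN2B-described probe, were CPOX and ERBB3 (both r = 0.88), and the gene most like CDKN2B was JUP (r = 0.90), which encodes the desmosomal protein plakoglobin.

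**Figure D3:**
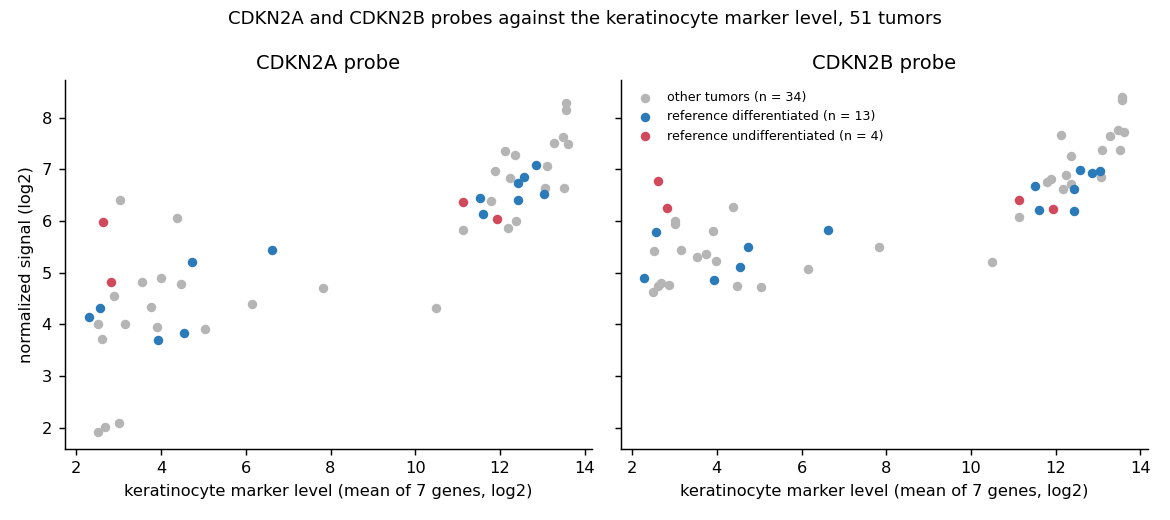
Log2 normalized signal of the CDKN2A-named probe (left) and the CDKN2B-described probe (right) against the keratinocyte marker level (mean log2 signal of 7 genes), 1 point per tumor, colored by reference class. Most points of the 26 tumors on the right of each panel lie above those of the 25 on the left, and r along the axis is 0.78 and 0.83 within the right cluster and 0.28 and -0.01 within the left.

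Of the tumors with low CDKN2A signal, 2 were also low in the neighbouring gene. MTAP, a purine salvage enzyme encoded 62 kb from the CDKN2A-named probe, was lowest of the 51 tumors in T49 (8.40) and LM0 (8.72), against a median of 10.19, and both were among the 11 tumors in which the CDKN2A-named probe was not above background. T135 and T12, which had CDKN2A-named levels of 1.92 and 2.09, had MTAP at 10.19 and 10.40, at and above the median. Over the 51 tumors MTAP did not follow the CDKN2A-named probe (r = 0.06). The CDKN2B-described probe, 2 kb from the CDKN2A-named probe, was at -0.42 from its median in T49, where it was above background. In LM0 it was at -1.41 and not above background. The transcript DN755513, also 2 kb away, was at -1.76 from its median in T49 and -2.51 in LM0. It was above background on all 51 arrays and followed the CDKN2A-named probe (r = 0.91). T49, LM0, T12 and T135 all lay in the lower keratinocyte cluster (levels 3.9, 2.67, 3.01 and 2.5). The CDKN2A-named probe had a median of 4.33 in that cluster, and T49 was at 3.96. Other genes farther away were low in 1 of the pair. The PTPLAD2 probes were at -1.54 and -1.58 from their medians in LM0 (rank 2 from the lowest). In T49 they were at -0.21 and -0.27. FOCAD was lowest of the 51 tumors in T49 (-0.49) and at 0.19 in LM0. The cause of the low values was not tested. These tumors were singled out after their values were seen.

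CDKN2C ran against the CDKN2A-named probe. It ranged from 8.55 in T117 to 11.71 in T49 with a median of 9.98, and its r with the CDKN2A-named probe was -0.45 (rho = -0.51, adjusted permutation p = 0.0122 and 0.00528). With the CDKN2B-described probe it was -0.29 (rho = -0.34), which did not pass (adjusted permutation p = 0.104 and 0.0616). It rose with the mast cell marker level (r = 0.63, rho = 0.66, adjusted permutation p = 1.2e-04 for each over 36 relations, and 0.64 without the 2 farthest tumors). With the mast cell level taken out of both, the r between CDKN2C and CDKN2A was -0.23 and no longer passed (adjusted permutation p = 0.242). CDKN2C was at 11.36 in T9, 10.00 in T57, 10.40 in T73 and 11.01 in T90, against 9.03 to 10.58 in the differentiated tumors, so 2 of 4 lay above every differentiated tumor and the medians were 10.71 and 9.77. SPCS3, a subunit of the signal peptidase, was the gene most like it (r = 0.73), followed by CIAO2A (r = 0.72) and GMCL1 (r = 0.71).

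RB1 was near its median of 6.77 in most tumors. The highest value was 7.89 in T73, a reference undifferentiated tumor. The lowest was 4.99 in T12, the 1 array where the probe was not above background. T12 also had a low share of spots well above background (60.6%, against 59.4% on the lowest array). In T12 the nearest probe, for the transcript CO590737 at 3 kb, was at 0.17 from its median. The nearest named gene, RCBTB2, 15 kb away, was at -0.86 from its median (rank 6 from the lowest), and the SUCLA2 and ITM2B probes on the other side were between -0.03 and 0.29 of their medians. One transcript without a gene name on that side, TC61078 at 301 kb, was at -1.82. RB1 correlated with the CDKN2A-named probe (r = 0.39, rho = 0.42, adjusted permutation p = 0.0379 and 0.0257), and this r did not pass with normexp background (0.25, adjusted p = 0.154), with slide means taken out (0.31, adjusted p = 0.0583) or with the mast cell, keratinocyte or granulocyte level taken out (0.35, 0.26 and 0.29). The undifferentiated tumors were at 6.55 to 7.89 and the differentiated at 6.01 to 7.85. ELAC2 (r = 0.66), MARK2 (r = 0.64) and EIF6 (r = 0.63) were most like RB1.

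CDKN3 set the classes apart and had the highest correlation of the members with cell division genes. A_11_P00000735 was at 10.03 in T9, 9.71 in T57, 9.36 in T73 and 9.83 in T90, against 5.35 to 8.09 (median 6.48) in the differentiated tumors. No value overlapped, and the class medians differed 9.8-fold. A_11_P092971 gave 9.09 to 9.74 against 4.75 to 7.81. These 2 overlapping probes, of 15 member probes, were the only ones without overlap, where 1.66% of all 43603 probes had none (0.952% with the undifferentiated tumors above and 0.709% below). With the authors' normalized table, its blank values skipped, 868 probes lay above and 600 below in place of 415 and 309, and the same number of member probes, 2, lay above. The classes were set by histology that includes a mitotic count, so a gene of dividing cells is not independent of how they were made. LM0 had the highest CDKN3 of all 51 tumors (10.95), followed by T49 (10.14); neither is named in the reference table.

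To place all members on one scale, their signal was set against an M phase level, the mean of 32 measured genes of a list of 40 that contains no member. It ran from 5.84 to 9.58 over the tumors, from 5.84 to 7.70 in the differentiated and from 8.51 to 9.00 in the undifferentiated ones. Slopes are log2 units per log2 unit of that level, tested with limma over all 43603 probes and adjusted by Benjamini-Hochberg, with a call at an adjusted p under 0.01. Of the 15 member probes 5 were called, 3 with a positive slope and 2 with a negative one, where 8.18% of all probes were called (4.51% positive and 3.66% negative). Among the 33703 probes above background on at least 5 arrays, tested alone, the share was 11.2%. CDKN3 rose with a slope of 1.39 ± 0.07 (SE, n = 51 tumors) on each of the overlapping probes (limma adjusted p = 2.05e-22 and 4.71e-22). The dim opposite-strand probe had 0.53 ± 0.10 (limma adjusted p = 7.5e-05), and 0.07 with normexp background. Pearson's r and Spearman's rho with the M phase level were both 0.94 on the overlapping pair (adjusted permutation p = 5e-05 and 7.5e-05), and r was 0.92 without the 2 farthest tumors and 0.95 with slide means taken out. The genes most like CDKN3, NUF2 (r = 0.95), CDC20 and NDC80 (both r = 0.93), are genes of the M phase list.

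CDKN1B was the only member with a called negative slope. Its slopes were -0.24 ± 0.05 on A_11_P0000019684 (limma adjusted p = 5.57e-04) and -0.21 ± 0.05 on A_11_P055296 (limma adjusted p = 0.00257), or a 1.18-fold and a 1.16-fold lower signal per doubling of the M phase signal. The lowest CDKN1B signals on A_11_P055296 were those of LM0 (8.80), T9 (8.93) and T114 (9.00), against a median of 9.89 and a highest value of 10.51 in T56. Among the undifferentiated tumors T57 was at 9.43, T90 at 9.69 and T73 at 10.15, above the differentiated median of 9.94, so the classes overlapped. On this probe r with the M phase level was -0.51 over 51 tumors (rho = -0.36, adjusted permutation p = 5.4e-04 and 0.0232) and -0.35 without T9 and LM0, the 2 tumors farthest from the median M phase level (adjusted permutation p = 0.0167, and 0.082 for rho). The other probe had -0.56 and -0.43. Other cell types moved with CDKN1B too. LM0 and T9 ranked 1 and 4 of 51 for the skeletal muscle marker level, which falls into clusters of 43 tumors (5.98 to 7.93) and 8 tumors (9.97 to 13.96). CDKN1B had a median of 9.91 (9.00 to 10.51) in the 43 and 9.41 (8.80 to 10.02) in the 8. Within the 43 its r with the muscle level was -0.36 (rho = -0.39, adjusted permutation p = 0.0756 and 0.055). CDKN1B rose with the mast cell level (r = 0.38, rho = 0.41, adjusted permutation p = 0.016 and 0.0098). Without the 2 farthest tumors r was 0.27 and did not pass, while rho was 0.35 (adjusted permutation p = 0.124 and 0.037). With the granulocyte level taken out of both measures the probes kept r of -0.42 and -0.47, but rho was -0.14 and -0.25 and did not pass (adjusted permutation p = 0.399 and 0.168). The genes most like CDKN1B were SNX29 (r = 0.77), USF2 (r = 0.74) and ARHGAP45 (r = 0.70).

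**Figure D4:**
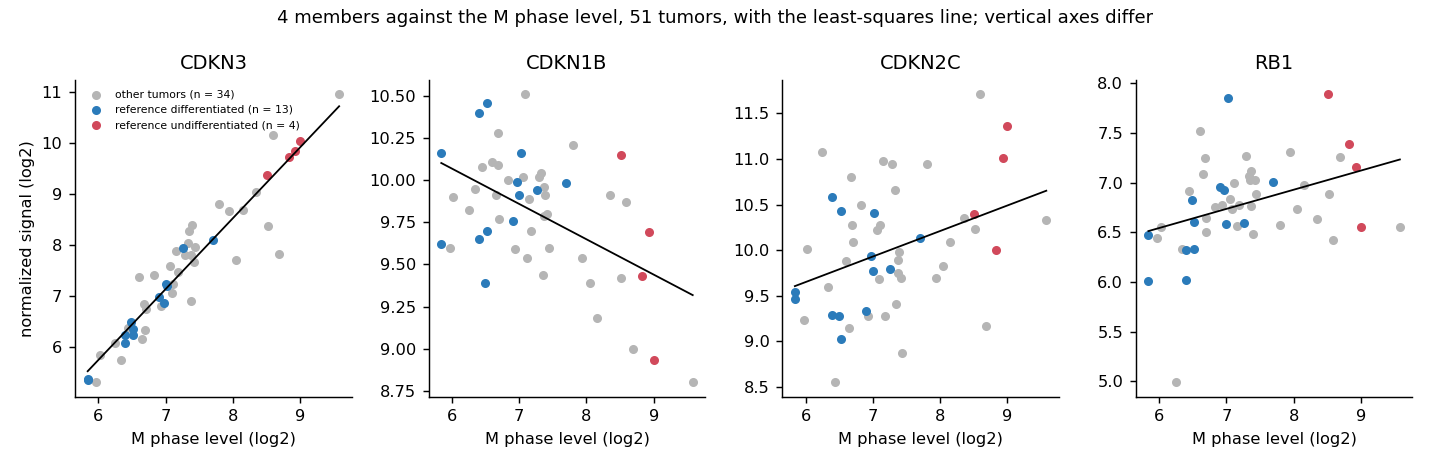
Log2 normalized signal of 4 members against the M phase level (mean log2 signal of 32 genes), 1 point per tumor, colored by reference class, with the least-squares line over 51 tumors; the vertical axes differ. CDKN3 climbs steeply with little scatter (slope 1.39), CDKN1B declines (slope -0.21), and CDKN2C (0.28) and RB1 (0.19) scatter widely around their lines.

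The remaining members had slopes that were not called: CDKN2C 0.28 ± 0.10 (limma adjusted p = 0.0465; 0.59 and called, adjusted p = 0.00707, with DNA replication genes as the measure), MDM2 0.22 ± 0.08 (adjusted p = 0.0493) and RB1 0.19 ± 0.07 (adjusted p = 0.0511). The GADD45A probes had 0.40 and 0.34 (limma adjusted p = 0.0295 and 0.0655), the 3 CDKN1A probes -0.02 to 0.24, CDKN2B 0.24 and CDKN2A 0.18. In the correlation test over the member probes, where both r and rho had to have an adjusted p under 0.05, RB1 passed (r = 0.37, rho = 0.41, adjusted permutation p = 0.0137 and 0.0105) beside CDKN3 and CDKN1B, 6 of 15 probes in all, and 11 passed with slide means taken out. RB1 did not pass without T57 and T114 (r = 0.31, adjusted permutation p = 0.0527) or with the granulocyte level taken out (r = 0.24, adjusted permutation p = 0.172). MDM2 had r = 0.37 (rho = 0.24) and 0.18 without T73 and T90, the tumors with the raised neighbourhood. It passed with slide means taken out (r = 0.51, rho = 0.40, adjusted permutation p = 3.86e-04 and 0.00758) and with the mast cell level taken out (r = 0.44, rho = 0.35, adjusted p = 0.00285 and 0.0217). The p with slide means taken out, here and for the 11 probes, may be too small. The permutations took no account of the slide means removed. GADD45A had r = 0.39 and 0.35 on its probes and 0.22 and 0.16 without T57 and T114. With the granulocyte level taken out of both measures its probes had 0.15 and 0.12. The CDKN1A probes A_11_P150703 and A_11_P122016 had r = 0.32 and 0.29, and 0.09 and 0.11 with the granulocyte level taken out. CDKN2C had r = 0.37, and 0.57 once the mast cell level was taken out of both measures (adjusted permutation p = 3.7e-05). Most granulocyte markers moved with the M phase level as well: 3 of 4 measured genes of a list of 8 had called slopes (S100A8 1.86, S100A9 1.98 and CSF3R 0.97). The fourth, CCR3, went the other way and was not called (-0.23, limma adjusted p = 0.662). The granulocyte level is the mean of these 4 genes. It was 6.90 to 11.28 in the differentiated and 8.47 to 13.92 in the undifferentiated tumors. Of 9 fibroblast markers DCN (-0.28) and FBLN1 (-0.50) fell, and of 8 macrophage markers CSF1R (-0.53) and C1QA (-0.50) fell and CD14 (0.48) rose. None of the 7 mast cell or 7 keratinocyte markers had a called slope. Cell type levels were taken out of the correlations given above but not out of the limma slopes, so the part of these cells in the slopes was not tested.

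Among the 36 pairs of members, 4 passed by both r and rho: the 2 INK4 probes on chromosome 11 (r = 0.88), CDKN2A with CDKN2C (r = -0.45), CDKN2A with RB1 (r = 0.39) and CDKN2C with CDKN3 (r = 0.47, rho = 0.41, adjusted permutation p = 0.0072 and 0.0292). The last did not pass by rho without the 2 farthest tumors (adjusted p = 0.0611). CDKN1B with CDKN3 passed by r alone (r = -0.40), and that value was -0.20 without the 2 farthest tumors. CDKN2B with RB1 and RB1 with CDKN3 passed by rho alone. With slide means taken out 13 pairs passed, by p that may be too small because the permutations took no account of the slide means removed.

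**Figure D5:**
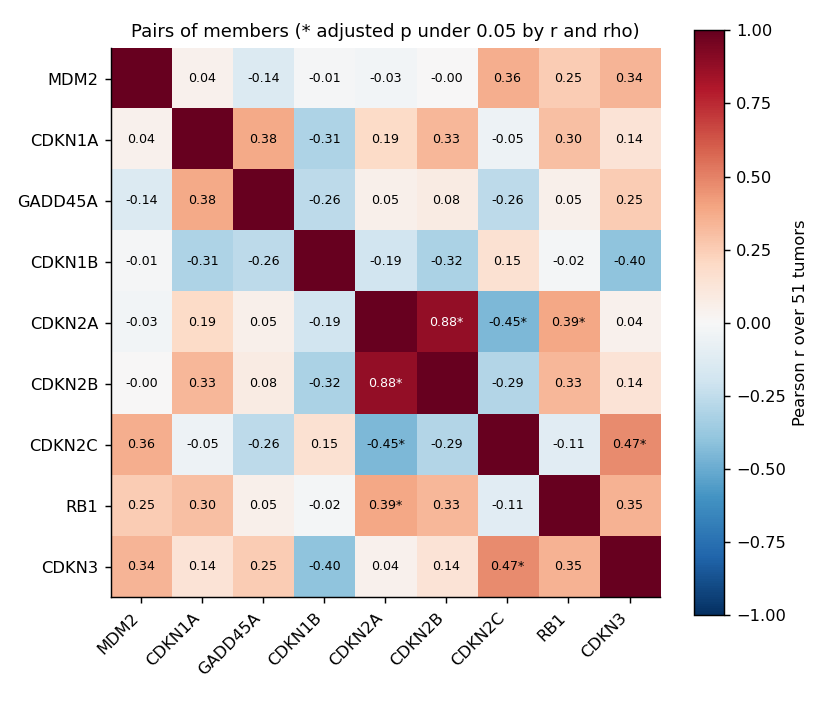
Pearson's r over 51 tumors for each pair of the 9 genes (brightest probe each), blue for negative and red for positive values; a star marks the 4 pairs with an adjusted permutation p under 0.05 by both r and rho. The block of CDKN2A and CDKN2B (0.88) stands out, CDKN2C is negative with CDKN2A (-0.45) and positive with CDKN3 (0.47), and most other cells are pale.

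The partners of these genes in the cell cycle were examined through 2 further lists. The share called in either direction was 8.18% over all probes and 11.2% over those above background on at least 5 arrays. The second share is the nearer match, since nearly all genes of both lists were above background on most arrays. For the RB and CDK pathway the median slope was 0.13 against -0.01 over all probes. Of 29 measured genes of that list of 37, 7 rose with the M phase level and none fell. They were CCNA2 (1.59), E2F8 (1.43), CCNE2 (0.88), CCNE1 (0.67), E2F1 (0.64), CDK2 (0.37) and LIN9 (0.35), that is, cyclins A and E with their kinase, the E2F factors and a subunit of the complex that switches on late cell cycle genes. Of 42 measured genes of a list of 52 in the p53 pathway, 3 rose and 1 fell, with a median slope of 0.05. That share is close to the 8.18% over all probes and the 11.2% over those above background on at least 5 arrays. The checkpoint kinases CHEK1 (0.61) and CHEK2 (0.30) and the apoptosis gene BID (0.22) rose, and TSC2, a brake on mTOR, fell (-0.21).

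No member probe passed the test for sex, breed or age. A probe was called between groups where limma gave an adjusted p under 0.01 together with a 2-fold or larger difference. For female against male dogs, 0 of 15 member probes were called, where 0.0252% of all probes were. Without adjustment 2 of 15 had a p under 0.05: CDKN3 on A_11_P00000735, at 7.13 ± 1.19 in 30 females and 7.95 ± 1.39 (SD) in 19 males, a difference of -0.82 ± 0.37 (SE, limma adjusted p = 0.791), and CDKN1B on A_11_P055296, at 9.90 ± 0.30 and 9.67 ± 0.43, a difference of 0.23 ± 0.10 (limma adjusted p = 0.791). The ranges of the sexes overlapped in both. By limma, 0 of 15 were called for Boxer against Labrador Retriever (background 0.055%), Crossbred against Labrador Retriever (0.0115%) and Crossbred against Boxer (0.0115%), and 0 had an unadjusted p under 0.05. The largest breed difference among the members was CDKN2B, -0.72 ± 0.40 for Crossbred minus Boxer (limma adjusted p = 1). For age the slopes lay between -0.02 and 0.12 log2 units a year, with 0 of 15 called by limma, 0 with an unadjusted p under 0.05, and a background of 0%. No gene of the 2 pathway lists was called for sex, breed or age. The numbers of dogs limit these comparisons, and a p that misses the threshold does not show that the groups were alike.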

How the data were processed

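The 51 tumors were measured on 1 array each. Per the file headers, the deposited intensity values are processed signals from Agilent Feature Extraction, background-subtracted and detrended within each array. The authors also deposited a table of quantile-normalized intensity values, used here as an alternative. The genome build of the probe positions is not given in the sources used here.

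Spots flagged as outliers (2 to 35 per array) and control spots were left out, the processed signal was quantile-normalized over the 51 arrays, log2 was taken and spots of one probe were averaged, leaving 43603 probes. Gene names come from the array's name and description columns, checked against RefSeq symbols; 17655 probes had a symbol. Probes were tested with limma 3.58.1 (R 4.3.3) for sex, 3 breed pairs, age and the slope on the M phase level, with Benjamini-Hochberg adjustment over all probes. Correlations used permutation tests (100000 resamples, two-sided), without the 2 farthest tumors and with slide means taken out as checks. With slide means taken out, values were permuted freely across slides, so those p may be too small. The fits were tested on simulated data. GEO's labels give no class, so the reference classes enter no test. The named genes are all member probes, the 3 genes most like each member (1 of them is not reported here), and the called genes of the 2 pathway lists; others are said to be chosen after their values were seen or are cell type markers and neighbours named for position. The members and lists were chosen with earlier results of these data known. A probe described as similar to a rat tumor suppressor of the CDKN2A locus was not counted. Scan dates and slides were used only as technical blocks. Alternatives were 75th percentile scaling, normexp background (offset 50), flagged spots kept, the authors' table, a filter to probes above background on at least 5 arrays, slide or scan session as a block, age as a covariate, other thresholds, the median in place of the mean, and a DNA replication list; leaving out named tumors, taking out cell type levels and the fibroblast level were added after seeing the data. The number of arrays limits the precision.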

Additional observations from a re-analysis of the deposited data

Results flagged for a closer look

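The Boxer and Labrador Retriever groups, of 9 dogs each, were tested for a single tumor far from the rest. Of 30 combinations of a member probe and a breed, 6 were flagged. Chance flags about 1 in 20. The combinations share tumors and probes of the same gene, so the 6 cannot be set against that rate. Among Boxers, T114 stood apart on 2 CDKN1A probes, at 15.46 against 12.69 to 13.60 in the other Boxers (A_11_P122016) and at 14.76 against 12.01 to 13.11 (A_11_P150703), and on the GADD45A probe A_11_P177278, at 12.79 against 8.69 to 10.66. T12, also a Boxer, had RB1 at 4.99 against 6.89 to 7.85. Among Labrador Retrievers, T73 had MDM2 at 11.67 against 9.74 to 10.72, and T80 had CDKN1B (A_11_P055296) at 9.39 against 9.90 to 10.21.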

How the results depend on the processing

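Groups are single dogs of mixed breed, age and treatment, class names come from the study's table, and the array cannot settle which INK4 gene each chromosome 11 probe measures. No paired analysis was possible because the replicate numbers only name samples in accession order. The counts of all probes called were small and moved with the processing. For sex, 11 probes became 7 with normexp background and 27 at an adjusted p under 0.05. For Boxer minus Labrador Retriever, 24 became 15 with normexp background, with the authors' table and with slide as a random block, 0 with slide as a fixed block, 6 with scan session as a block and 37 at an adjusted p under 0.05. For Crossbred minus Labrador Retriever, 5 became 1 with normexp background, 3 with slide as a fixed block and 10 at the looser limit. For Crossbred minus Boxer, 5 became 2 with normexp background and with the authors' table, 0 with slide or scan session as a fixed block, and 11 at the looser limit. At that limit the M phase slope called 6509 probes in place of 3566, and 8 member probes in place of 5. With slide means taken out, 11 in place of 6 member probes correlated with the M phase level and 13 in place of 4 pairs passed. Those higher counts may be overstated, because the permutations took no account of the slide means removed. Of the pairs, 2 passed with the mast cell level taken out and 2 with the keratinocyte level taken out. The signs that turned were those of values that had not passed. The CDKN1A probe A_11_P0000020666 had a slope of 0.01 with 75th percentile scaling, slide or scan session as a block, and a correlation with the M phase level of 0.05 with 75th percentile scaling, without the 2 farthest tumors and with slide means taken out, and 0.03 without LM0. CDKN2A had a slope of -0.04 on DNA replication genes, and with the granulocyte level taken out CDKN2A and CDKN2B had correlations of -0.23 and -0.09. The cause was not tested. Of the other values for single probes and pairs, 417 stayed on their side of the threshold, 24 came to pass and 17 no longer passed.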
